A study of Homo sapiens with 42 samples.

Results

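Gene expression in HL-60 cells, an established MYC-amplified line of acute myeloid leukemia, was compared between 2 inhibitor treatments given without all-trans-retinoic acid (ATRA). The comparison used 6 of the 42 Affymetrix arrays of the study: the 3 whose treatment label is HKMTI-1-005 and the 3 whose label is GSK343 (written GSK-343 by the study). HKMTI-1-005, a substrate-competitive inhibitor of EZH2 and of the paralogs EHMT2 (G9a) and EHMT1 (GLP), was used at 2.5 µM, and GSK343, an EZH2 inhibitor that competes with the methyl donor SAM, at 10 µM, each for 3 days. The doses differ, so compound and dose cannot be told apart in any difference given here. No cell was transduced in these groups. For reference, 3 arrays of cells labelled untreated were used; the study also speaks of a vehicle control. A further 6 arrays, HKMTI-1-005+ATRA and GSK343+ATRA (0.1 µM ATRA, same inhibitor doses), held the same pair of treatments in other samples. For some genes, levels are also given with ATRA alone (3 arrays) and in a knockdown experiment of 3 arrays a group: untransduced cells (WT), and puromycin-selected cells transduced with a non-targeting shRNA (Scr), EZH2 shRNA #1 or EZH2 shRNA #2.

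EZH2 is the catalytic subunit of Polycomb repressive complex PRC2, which methylates lysine 27 of histone H3, a mark of silent genes. EHMT2 and EHMT1 methylate lysine 9 of histone H3, another mark of repressed chromatin. HL-60 cells are blocked at a stage that makes the proteases of primary granules, and retinoic acid drives them toward granulocytes.

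The cells expressed the defining gene of primary granules. Myeloperoxidase (MPO) averaged 13.12 ± 0.03 (log2, SD, n = 3) under GSK343 and 12.95 ± 0.18 (SD, n = 3) under HKMTI-1-005. The B cell gene MS4A1, the T cell gene CD3E, the erythroid gene HBB and the macrophage gene CD163 had mean levels between 4.09 and 4.44 in both groups, near the bottom of the values (3.18 to 14.49, median 5.4). The array medians of the 6 arrays were 5.367 to 5.448. Distances between arrays of 1 group were 25.7 to 33.3, and between groups 28.6 to 37.6 (Euclidean, over 18417 genes). HKMTI-1-005 replicate 2 was 33.3 and 32.8 from the other arrays of its group. It was 35.7, 30.3 and 30.3 from GSK343 replicates 1, 2 and 3, so nearer to 2 of these than to its own group. The mean level of 192 small nucleolar RNA genes was 7.349 to 7.812 with GSK343 and 7.151 to 7.916 with HKMTI-1-005, which overlapped. The 7.151 was that of HKMTI-1-005 replicate 2.

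Of 7367 genes in the top 40% by mean level, 29 differed between the treatments (0.394%; called where limma gave an adjusted p up to 0.05 with at least a 1.3-fold difference). Only 3 were higher with HKMTI-1-005 (0.0407%) and 26 were lower (0.353%). Their 3 and 3 arrays did not overlap in any of the 29. The genes were picked by p and fold in these same arrays, so this adds no support to the calls. Over all 7367 genes the arrays did not overlap for 5.5% in the higher and 10.4% in the lower direction. The share of higher genes depended on the scaling, being 10.3% as deposited and 26.1% with quantile normalization (6 higher, 17 lower). The count also rested on single arrays. It was 4 without HKMTI-1-005 replicate 3, 5 without GSK343 replicate 2, 8 without HKMTI-1-005 replicate 1, 13 without GSK343 replicate 1 and 18 without GSK343 replicate 3. The calls of ZNF136 and ZNF75A held in all 6 of these fits, those of ZNF117, RAVER2 and PRTN3 in 4, and those of TXNL4A, PCGF5, MLXIPL and NUCB2 in 0.

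Set beside untreated cells, the 26 lower genes took 3 forms. In 11 the GSK343 mean lay within 0.2 of the untreated mean (log2) and HKMTI-1-005 was below both: 8 zinc finger genes with CHFR, BET1 and TXNL4A. In 6 the HKMTI-1-005 mean lay within 0.2 of the untreated mean and GSK343 was above both: ITM2A, RAVER2, KIF21A, PCGF5, OSBPL3 and LZTFL1. In the other 9 the treatments lay on opposite sides of untreated cells, each more than 0.2 away. Since these values share arrays with the comparison of the treatments, they place the genes and add no test. Against untreated cells 16 genes were called with HKMTI-1-005 (0.217%) and 1 with GSK343 (0.0136%), which was RAVER2. The 16 became 5 without HKMTI-1-005 replicate 3, 8 without HKMTI-1-005 replicate 1, 7 without untreated replicate 1 or 3 and 9 without untreated replicate 2. The 1 became 0 without GSK343 replicate 2 or untreated replicate 1 or 3, and 2 without GSK343 replicate 1.

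**Figure D1:**
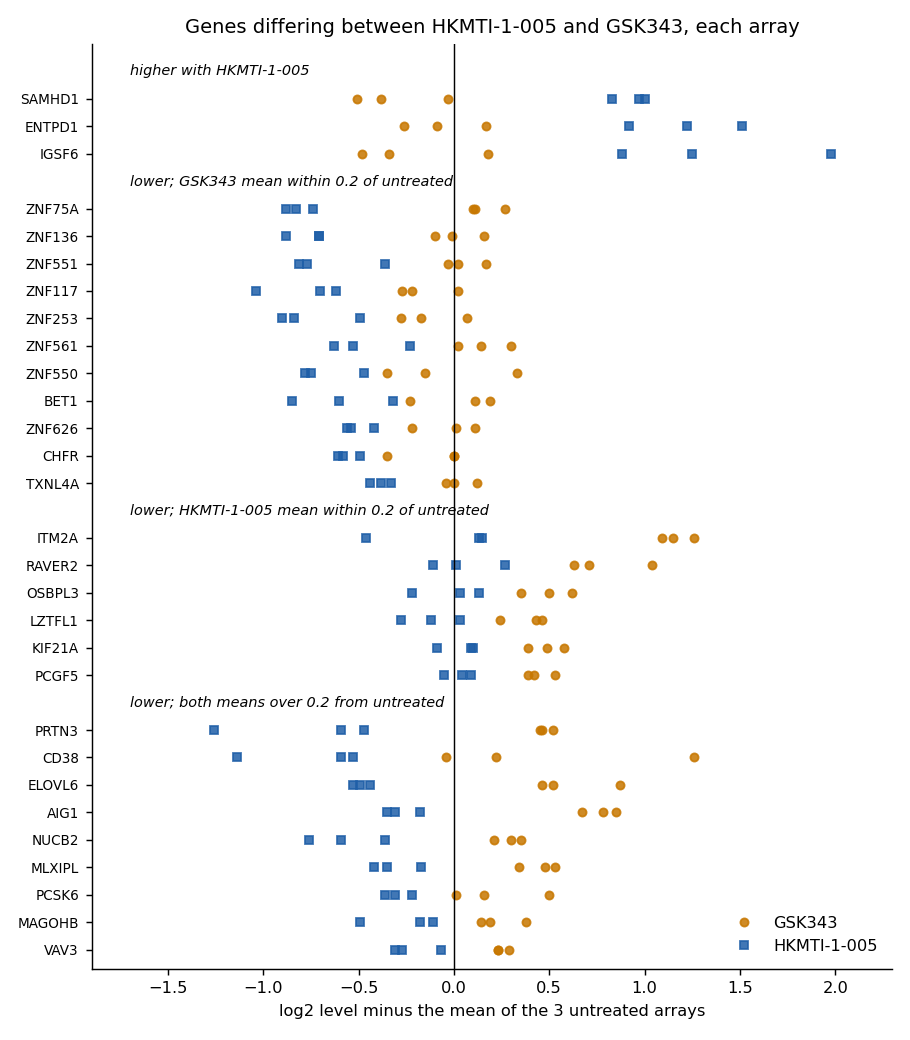
Each of the 29 genes called between HKMTI-1-005 (blue squares) and GSK343 (orange circles), both without ATRA, as the log2 level of each array (3 per group) minus the mean of the 3 untreated arrays (line at 0). The 3 genes at the top were higher with HKMTI-1-005, and the 26 below were lower, sorted by which treatment lay near the untreated mean. The symbols of each gene fall into separate ranges.

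The 3 higher genes were ENTPD1, IGSF6 and SAMHD1. ENTPD1 encodes CD39, a membrane enzyme that hydrolyzes extracellular ATP and ADP. Its log2 levels were 8.73, 9.32 and 9.03 with HKMTI-1-005, 7.55, 7.98 and 7.72 with GSK343, and 7.51, 7.84 and 8.07 in untreated cells. All 3 HKMTI-1-005 arrays were above every GSK343 and untreated array, and GSK343 lay among the untreated values. The log2 difference between the treatments was 1.28 (95% interval 0.76 to 1.79, adjusted p = 0.0116, limma), a fold of 2.42.

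IGSF6, a membrane protein of the immunoglobulin superfamily made by myeloid cells, had levels of 7.84, 8.21 and 8.94 with HKMTI-1-005 and 6.62, 6.48 and 7.14 with GSK343. Untreated cells, at 6.71, 6.71 and 7.45, resembled GSK343. The difference of 1.58 (0.90 to 2.27, adjusted p = 0.0224) had the widest interval of the 3. SAMHD1, which breaks down deoxynucleotides and restricts retroviruses in myeloid cells, had levels of 10.88, 11.02 and 11.05 with HKMTI-1-005 and 9.67, 9.54 and 10.02 with GSK343. Its untreated levels of 10.09, 9.84 and 10.23 lay between the treatments, overlapping only GSK343, and the difference was 1.24 (0.67 to 1.80, adjusted p = 0.0355). With 1 array left out, the calls of ENTPD1 and IGSF6 held in 3 of 6 fits and that of SAMHD1 in 1.

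The start regions of ENTPD1 and IGSF6 are shown as those of 2 of the higher genes; they hold few CpG dinucleotides, the sites of DNA methylation. The sequences are RefSeq's for GRCh38.p14, from 250 bases before to 50 after 1 annotated start per gene, and capitals mark each CpG. The start used for ENTPD1 lies inside the gene, whose annotated span begins at 95694185, and its other starts were not examined.
ENTPD1 (chr10:95755913-95756212, plus strand): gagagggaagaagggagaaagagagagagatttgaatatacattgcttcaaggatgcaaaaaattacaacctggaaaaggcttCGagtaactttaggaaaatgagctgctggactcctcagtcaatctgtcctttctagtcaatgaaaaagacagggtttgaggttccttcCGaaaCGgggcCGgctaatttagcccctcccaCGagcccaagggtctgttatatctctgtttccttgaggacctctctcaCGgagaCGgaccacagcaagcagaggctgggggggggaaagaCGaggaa
IGSF6 (chr16:21652559-21652858, minus strand): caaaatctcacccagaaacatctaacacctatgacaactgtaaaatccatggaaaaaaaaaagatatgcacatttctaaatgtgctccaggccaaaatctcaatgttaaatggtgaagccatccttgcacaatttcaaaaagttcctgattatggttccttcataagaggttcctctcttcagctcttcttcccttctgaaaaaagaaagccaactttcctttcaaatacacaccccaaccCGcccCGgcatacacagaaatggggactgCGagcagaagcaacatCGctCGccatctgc
ENTPD1 has 8 CpG in its 300 bases and IGSF6 has 5, whereas SAMHD1 has 22. Low numbers were not particular to higher genes: among the lower ones VAV3 has 1, ZNF117 has 2, OSBPL3 has 3, CD38 has 4 and ZNF626 has 8. The median was 27 over the 6114 genes of the top 40% with such a sequence and 16 over 8123 genes of lower level.

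A further 43 genes passed the p and fold limits but had a mean level under that of the top 40% (6.88), so they could not be called. Those named here were chosen after their values were seen. Of the 43, 15 were higher with HKMTI-1-005 and 28 lower, and the arrays of 41 did not overlap. The 43 were picked by p and fold in these same arrays, so that separation adds no support. The share over all genes of such level was not counted. The largest difference was in CLEC5A, a C-type lectin of monocytes and neutrophils. Its levels were 7.63, 7.51 and 8.80 with HKMTI-1-005, 6.38, 5.94 and 5.20 with GSK343, and 6.67, 6.22 and 6.18 in untreated cells. HKMTI-1-005 was above both other groups in every array, and the difference between the treatments was 2.14 (1.51 to 2.77, adjusted p = 0.0003), or 4.4-fold.

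Other genes of low level were higher with HKMTI-1-005 than with GSK343. S100A12, a calcium-binding protein of granulocytes and monocytes, differed by 0.97 (adjusted p = 0.0398), with arrays of 7.29 to 7.96 against 6.50 to 6.79. MS4A4A, a membrane protein of macrophages, differed by 1.03 (adjusted p = 0.0428). HLA-DMA, which loads peptides onto MHC class II molecules, differed by 0.80, TBXAS1, which makes thromboxane, by 0.57, and CD84, a receptor of the SLAM family, by 0.57. SEMG1, known as a seminal protein, had levels of 6.59, 7.13 and 6.97 against 5.30, 5.44 and 5.75, a difference of 1.40 (adjusted p = 3.31e-06). Of the 15 genes, 13 had a RefSeq start region, with a median of 2.0 CpG and a range of 0 to 40, the 40 being in MOXD1. The start region of CLEC5A is shown as one that holds 2 CpG and also GAGGAAG, a motif of the myeloid factor PU.1.
CLEC5A (chr7:141946925-141947224, minus strand): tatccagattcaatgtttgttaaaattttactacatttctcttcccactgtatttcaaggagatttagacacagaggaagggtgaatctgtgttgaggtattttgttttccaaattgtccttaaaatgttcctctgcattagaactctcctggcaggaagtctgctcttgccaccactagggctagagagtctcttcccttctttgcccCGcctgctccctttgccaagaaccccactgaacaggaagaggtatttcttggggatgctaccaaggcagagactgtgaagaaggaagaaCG
GAGGAAG, searched on both strands, was in 3 of the 13 start regions (23.1%), in 13.7% of those of lower-level genes and in 13.4% of all 27305 RefSeq start regions. It was in 0 of the 3 called higher genes and in 2 of 11 other lower genes under the level limit (18.2%), as well as in the called lower genes PRTN3 and ZNF75A.

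The genes of primary granules, the proteases and other contents of promyelocytes, lay lower with HKMTI-1-005. Of 19 measured, 14 were in the top 40%, where 11 were below 0 and 6 had an unadjusted p under 0.05 in the lower direction and 0 in the higher (5.59% and 1.38% of all 7367 genes). Only PRTN3 was called. The median over the 14 was -0.42, beside -0.03 over all genes of the top 40%. The list was written with earlier results of these data known, so its direction is not independent evidence.

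PRTN3 encodes proteinase 3, and its levels were 9.76, 9.64 and 8.97 with HKMTI-1-005, 10.68, 10.69 and 10.75 with GSK343, and 10.28, 10.42 and 10.01 in untreated cells. HKMTI-1-005 was below and GSK343 above every untreated array. The difference between the treatments was -1.25 (-1.75 to -0.74, adjusted p = 0.0121, 2.38-fold). Neutrophil elastase (ELANE) had levels of 7.41, 7.46 and 7.35 against 8.04, 8.06 and 8.43, separate ranges with a difference of -0.77 that was not called (adjusted p = 0.133). AZU1, an antimicrobial protein of the same granules, differed by -0.78 (adjusted p = 0.314), cathepsin G (CTSG) by -0.78 (adjusted p = 0.641) and MS4A3, a membrane protein of granulocyte precursors, by -0.73 (adjusted p = 0.285). MPO, the most abundant of them, differed by -0.17 (adjusted p = 1). CEBPE, a transcription factor of granulocyte maturation, differed by -0.63 and was not called either (adjusted p = 0.261).

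CD38, an NAD-degrading surface enzyme and a known target of retinoic acid in these cells, had levels of 6.97, 7.58 and 7.52 with HKMTI-1-005 and 8.07, 8.33 and 9.37 with GSK343. The third GSK343 array was 1 log2 unit above the other two, which lay near untreated cells (8.11, 8.00 and 8.20). The difference of -1.23 (-1.82 to -0.64) had an adjusted p of 0.0451, was -0.84 without GSK343 replicate 3, and was called in 1 of the 6 fits that left out an array.

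The lists of myeloid maturation and of monocytes and macrophages had medians above 0, with 1 call, IGSF6. The myeloid maturation list had a median of 0.18 over 27 genes of the top 40% (19 above 0 and 8 below). At an unadjusted p under 0.05 there were 2 higher and 1 lower, beside 1.38% and 5.59% of all 7367 genes. With ATRA the maturation median was 0.03 (14 above 0 and 13 below) and the monocyte median 0.54. The 5 secondary and tertiary granule genes of the top 40% had a median of -0.09 without ATRA (2 above 0 and 3 below). ITGAM, which encodes CD11b, the differentiation marker used by the study, had levels of 6.88, 6.60 and 7.33 with HKMTI-1-005 against 5.87, 6.00 and 6.27 with GSK343 and 5.97, 5.94 and 6.28 in untreated cells. Its arrays did not overlap, but its difference of 0.90 was not called (standard error 0.28, adjusted p = 0.248). The monocyte and macrophage list had 6 genes in the top 40%, with a median of 0.49. MS4A6A, a membrane protein of monocytes and macrophages, differed by 1.08 (adjusted p = 0.115) and CD68, a lysosomal protein of macrophages, by 0.52 (adjusted p = 0.465). Without HKMTI-1-005 replicate 3 the maturation median was 0.08 and the monocyte median 0.30.

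Over all 24 measured genes of the monocyte and macrophage list the mean level was 5.71 to 5.93 with HKMTI-1-005, 5.45 to 5.60 with GSK343 and 5.48 to 5.60 in untreated cells. The defining genes stayed low in both treatments: CD14 had a mean of 4.85 with HKMTI-1-005 and 4.53 with GSK343, and CSF1R 4.54 and 4.56. The mean level of 33 lymphoid genes was 4.84 to 4.88 and 4.80 to 4.84, and that of 24 erythroid and megakaryocyte genes 4.99 to 5.02 and 4.95 to 5.02. In RNA from whole cultures, fewer cells of a type and less RNA per cell cannot be told apart.

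**Figure D2:**
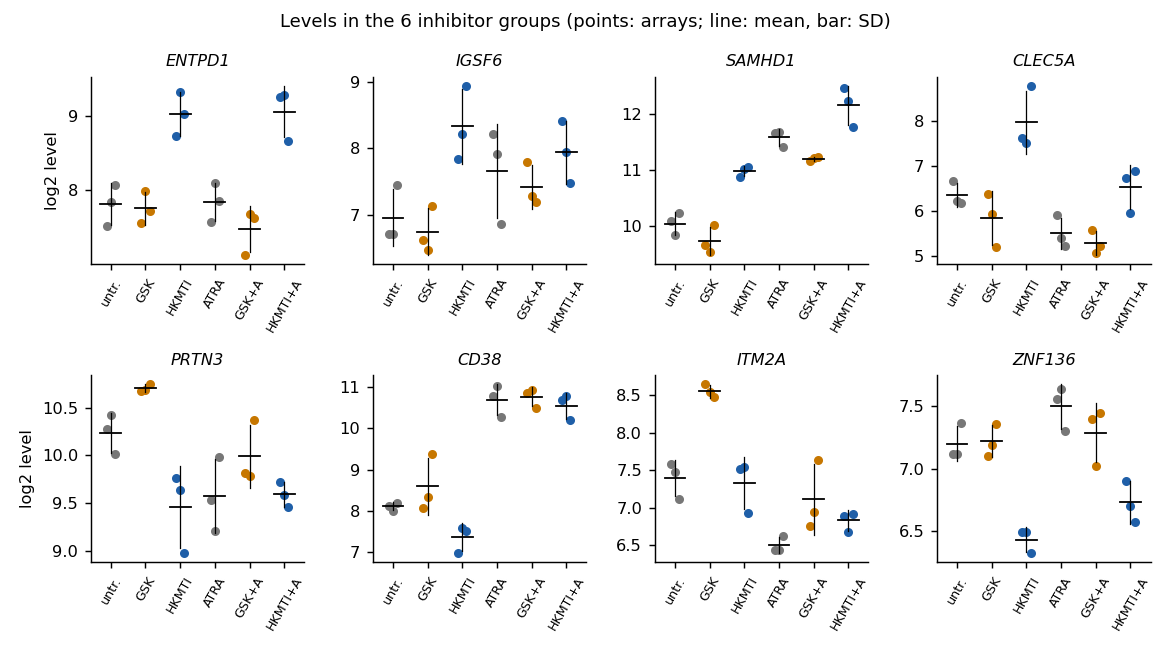
Log2 levels of 8 genes in the 6 inhibitor groups: untreated (untr.), GSK343 (GSK) and HKMTI-1-005 (HKMTI), then the same with ATRA (ATRA, GSK+A, HKMTI+A). Points are arrays (3 per group; blue HKMTI-1-005, orange GSK343, gray no inhibitor), lines means and bars SD, and each panel has its own vertical axis, which does not start at 0. ENTPD1 and CLEC5A lie higher with HKMTI-1-005 than with GSK343 on both sides of each panel, ZNF136 lies lower on both sides, and CD38 lies between 10.19 and 11.01 in the 3 groups with ATRA.

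Many of the lower genes encode zinc finger proteins. These proteins bind DNA through tandem zinc fingers, many carry a KRAB domain that recruits repressors, and their genes stand in clusters, above all on chromosome 19, where they are known to carry methylated lysine 9 of histone H3. Among the 26 lower genes, 8 had symbols of ZNF and a number, beside 169 of all 7367 genes of the top 40%. None of the 3 higher genes did, but 3 are too few for a comparison. The 8 were ZNF75A on chromosome 16, ZNF117 on chromosome 7, and ZNF136, ZNF253, ZNF550, ZNF551, ZNF561 and ZNF626 on chromosome 19. The grouping by symbol was made after results of these data had been seen. These genes resemble each other in sequence, so a probe set may also read the transcript of a relative, which was not tested.

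ZNF136 had levels of 6.49, 6.49 and 6.32 with HKMTI-1-005, 7.10, 7.19 and 7.36 with GSK343, and 7.12, 7.12 and 7.37 in untreated cells. GSK343 overlapped untreated cells, and every HKMTI-1-005 array was below both. The difference between the treatments was -0.78 (-1.03 to -0.54, adjusted p = 0.000662, 1.72-fold). ZNF75A had levels of 7.51, 7.56 and 7.65 with HKMTI-1-005 against 8.49, 8.50 and 8.66 with GSK343 and 8.41, 8.08 and 8.69 in untreated cells. Its difference of -0.98 (-1.31 to -0.65, adjusted p = 0.00164) was the largest of the 8, a fold of 1.97. The other 6 differed by -0.47 (ZNF626) to -0.70 (ZNF551), with adjusted p from 0.00884 to 0.0415.

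The shift was not limited to the called genes. Of the 62 chromosome 19 genes of this name in the top 40%, all 62 were below 0 as deposited and with the arrays centred, and 61 with quantile normalization. Their median was -0.36, the lowest -0.78 and the highest -0.05. An unadjusted p under 0.05 was reached by 36 of them, beside 5.59% of all 7367 genes in the lower direction and 1.38% in the higher. The arrays of 40 did not overlap, beside 10.4% of all 7367 genes in the lower direction. The 374 other genes of chromosome 19 in the top 40% had a median of 0.01, with 196 above and 178 below 0. ZNF genes of other chromosomes lay between, with a median of -0.12 over 107 genes, 76 of them below and 31 above 0 (17 and 5 at an unadjusted p under 0.05).

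Array by array, the mean level of the 62 genes was 7.76, 7.95 and 7.72 with HKMTI-1-005, 8.13, 8.25 and 8.16 with GSK343, and 8.25, 8.19 and 8.22 in untreated cells. Each HKMTI-1-005 array was below every array of the other groups. The mean of the 374 other chromosome 19 genes was 8.70, 8.68 and 8.68 with HKMTI-1-005 and 8.67, 8.72 and 8.68 with GSK343, which overlapped. With any 1 of the 6 arrays left out, 60 to 62 of the 62 genes stayed below 0, with medians of -0.43 to -0.30.

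**Figure D3:**
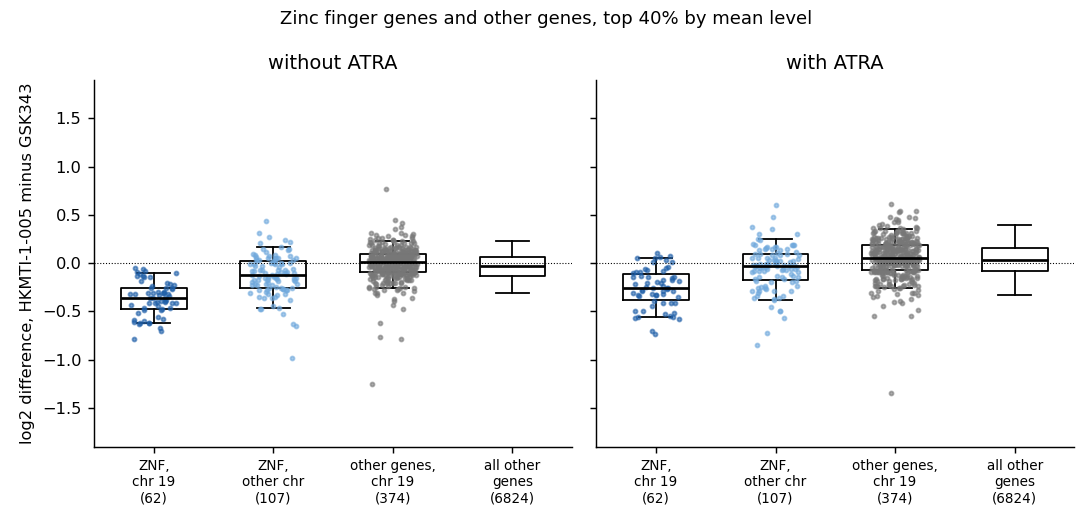
Log2 difference between HKMTI-1-005 and GSK343 for ZNF genes on chromosome 19 (62), ZNF genes elsewhere (107), other chromosome 19 genes (374) and all other genes of the top 40% by mean level, without ATRA (left) and with ATRA (right). Points are genes (not drawn for the last set), boxes span the quartiles with the median as a line, and whiskers reach the 5th and 95th percentiles. ZNF genes of chromosome 19 have medians of -0.36 and -0.26, and the other genes of that chromosome 0.01 and 0.05.

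Start regions of ZNF136 and ZNF75A, the pair of calls that no single array removed, are shown with CpG again in capitals.
ZNF136 (chr19:12162846-12163145, plus strand): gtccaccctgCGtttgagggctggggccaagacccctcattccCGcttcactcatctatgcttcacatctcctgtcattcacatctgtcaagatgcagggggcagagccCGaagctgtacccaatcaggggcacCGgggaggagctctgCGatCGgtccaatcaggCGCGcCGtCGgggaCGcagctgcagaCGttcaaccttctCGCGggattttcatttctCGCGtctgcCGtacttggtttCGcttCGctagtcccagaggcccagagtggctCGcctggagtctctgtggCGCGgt
ZNF75A (chr16:3305247-3305546, plus strand): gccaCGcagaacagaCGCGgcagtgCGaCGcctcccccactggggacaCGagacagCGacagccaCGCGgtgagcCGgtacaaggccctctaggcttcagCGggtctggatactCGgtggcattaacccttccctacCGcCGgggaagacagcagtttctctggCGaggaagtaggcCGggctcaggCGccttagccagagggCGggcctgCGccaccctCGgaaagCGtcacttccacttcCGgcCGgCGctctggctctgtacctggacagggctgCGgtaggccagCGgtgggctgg
ZNF136 has 22 CpG and ZNF75A has 26. Among the 7 called ZNF genes with a RefSeq start region the median was 20.0 (range 2 to 26), beside 22.0 over 403 measured ZNF genes. The start region of ZNF75A holds the ETS-type motif CCGGAAG (found on either strand), as do those of ZNF550 and ZNF551, 3 of the 7 (42.9%). It was in 39.7% of the 403 measured ZNF genes, in 23.5% of the genes of the top 40% and in 10.7% of all RefSeq start regions.

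Neighbors of the called genes were picked after those were known, and the extent of the shift along the chromosomes was not mapped. At the cluster on chromosome 7 that holds ZNF117, all 6 ZNF genes from ZNF680 to ZNF92 were below 0, with a median of -0.49. The called gene ZNF117 is itself 1 of these 6. Of all 7367 genes of the top 40%, 4268 were below 0. ZNF138 differed by -0.65, ZNF273 by -0.52 and ZNF680 by -0.47, and none of these was called (adjusted p from 0.102 to 0.245). LOC441239, which is no zinc finger gene by name and lies within the cluster, differed by 0.05. ERV3-1, the envelope gene of an endogenous retrovirus, lies next to ZNF117 and shares a readthrough transcript with it, so their signals may not be separate. Its levels were 5.19, 5.16 and 5.45 with HKMTI-1-005, 7.02, 6.90 and 6.93 with GSK343, and 6.83, 6.68 and 7.21 in untreated cells. GSK343 overlapped untreated cells and HKMTI-1-005 was far below, a difference of -1.68 (-2.24 to -1.12, adjusted p = 0.00152, 3.21-fold) at a mean level under the limit for a call.

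CHFR, a ubiquitin ligase of a mitotic checkpoint on chromosome 12, also stands beside zinc finger genes. Its levels were 7.30, 7.42 and 7.33 with HKMTI-1-005, 7.56, 7.91 and 7.91 with GSK343, and 7.95, 7.83 and 7.95 in untreated cells. HKMTI-1-005 lay below both groups, and the difference from GSK343 was -0.44 (-0.63 to -0.25, adjusted p = 0.0252). All 6 measured ZNF genes past CHFR, from ZNF605 to ZNF268, were below 0, with differences of -0.21 to -0.47 and a median of -0.34, and none was called. At the other end, GOLGA3, a Golgi protein gene next to CHFR, differed by -0.06.

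Most ZNF genes in the stretches around the calls on chromosome 19 lay low as well. The counts and medians given for these stretches include the called genes themselves, which had been picked by p and fold. Around ZNF561, 6 of 7 were below 0 (median -0.46), with ZNF426 at -0.60 (adjusted p = 0.0858) and ZNF562 at -0.67 (adjusted p = 0.636). Around ZNF550 and ZNF551, 16 of 17 were below 0 (median -0.33), with ZNF776 at -0.57 (adjusted p = 0.131) and the exception ZNF552 at 0.33 (adjusted p = 0.465). ZIK1 and ZSCAN4, which lie in the same stretch at very low levels, differed by 0.12 and 0.03. Of the 43 genes under the level limit, 10 were ZNF genes, all lower with HKMTI-1-005, from -0.39 (ZNF527) to -0.88 (ZNF717). Over all 18417 genes, 494 had such symbols.

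BET1 and TXNL4A also had GSK343 levels near untreated cells. BET1, a SNARE protein of transport from the endoplasmic reticulum to the Golgi, was at 7.64, 7.39 and 7.92 against 8.35, 8.43 and 8.01, a difference of -0.61 (adjusted p = 0.0324). TXNL4A, a component of the spliceosome, was at 9.89, 9.78 and 9.84 against 10.18, 10.34 and 10.22, a difference of -0.41 (adjusted p = 0.0353) that was lost with any array left out.

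In the 6 genes that were high with GSK343, HKMTI-1-005 differed little from untreated cells. ITM2A, a type II membrane protein, had levels of 8.65, 8.54 and 8.48 with GSK343, 7.52, 7.54 and 6.93 with HKMTI-1-005, and 7.58, 7.47 and 7.11 in untreated cells. The GSK343 arrays were above all others, and the difference between the treatments was -1.22 (-1.71 to -0.73, adjusted p = 0.0116).

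RAVER2, an RNA-binding protein, had levels of 7.47, 7.88 and 7.55 with GSK343, 6.85, 7.11 and 6.73 with HKMTI-1-005, and 6.81, 6.91 and 6.79 in untreated cells. GSK343 stood above the other groups in every array. The difference between the treatments was -0.73 (-1.01 to -0.46, adjusted p = 0.00773), and GSK343 was 0.80 above untreated cells (adjusted p = 0.00757). The start region of RAVER2, the 1 gene called for GSK343 against untreated cells, is shown as an example dense in CpG (39, in capitals), of the CpG island kind that Polycomb complexes are known to occupy. Whether they do so here was not measured. The other genes high with GSK343 were not all dense in CpG. PCGF5 has 55, KIF21A 34, LZTFL1 18, ITM2A 11 and OSBPL3 3, beside a median of 27 in the top 40%.
RAVER2 (chr1:64744825-64745124, plus strand): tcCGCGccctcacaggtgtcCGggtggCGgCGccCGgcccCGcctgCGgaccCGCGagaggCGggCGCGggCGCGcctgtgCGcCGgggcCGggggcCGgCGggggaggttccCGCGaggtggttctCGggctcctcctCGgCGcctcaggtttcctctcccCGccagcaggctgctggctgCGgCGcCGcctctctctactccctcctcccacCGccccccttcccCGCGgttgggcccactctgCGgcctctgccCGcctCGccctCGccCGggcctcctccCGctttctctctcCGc

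PCGF5, a subunit of the Polycomb complex PRC1, belonged to the same 6 genes. Its levels were 8.39, 8.28 and 8.25 with GSK343, 7.95, 7.90 and 7.81 with HKMTI-1-005 and 7.90, 7.89 and 7.78 in untreated cells, and the difference between the treatments was -0.42 (adjusted p = 0.0423). KIF21A, a kinesin motor, differed by -0.45 (adjusted p = 0.0237), OSBPL3, a lipid transfer protein, by -0.51 (adjusted p = 0.0415) and LZTFL1, a regulator of ciliary trafficking, by -0.50 (adjusted p = 0.0353). In each of these the GSK343 arrays lay above every HKMTI-1-005 and untreated array.

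The 6 genes did not behave alike in the knockdown experiment, where EZH2 itself had a mean of 10.36 with the non-targeting shRNA, 9.28 with EZH2 shRNA #1 and 9.29 with EZH2 shRNA #2. In the same order ITM2A was at 7.14, 8.37 and 7.57, RAVER2 at 6.47, 7.27 and 7.11, and KIF21A at 7.61, 8.04 and 8.22. OSBPL3 was at 7.39, 7.85 and 7.47, PCGF5 at 7.81, 7.93 and 7.97, and LZTFL1 at 7.69, 7.77 and 7.56. Untransduced cells had means of 7.16 for RAVER2, 8.04 for KIF21A and 8.13 for PCGF5, above the non-targeting control. Their mean for EZH2 was 10.02, below that control. These knockdown levels are given as a description and were not tested.

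Among the 28 lower genes under the level limit, PFN2 and POPDC3 had the same form, and RHEX was close to it, with HKMTI-1-005 at -0.22 from untreated cells. RHEX, a regulator of erythroid cell expansion, was at 7.09, 7.38 and 8.07 with GSK343, 5.93, 5.91 and 5.56 with HKMTI-1-005, and 5.95, 6.20 and 5.90 in untreated cells. The difference between the treatments was -1.71 (-2.21 to -1.21, adjusted p = 0.0003). PFN2, an actin-binding profilin, was at 6.91, 7.18 and 6.86 with GSK343, 5.73, 5.79 and 6.35 with HKMTI-1-005, and 6.05, 6.23 and 5.76 in untreated cells, a difference of -1.02 (adjusted p = 0.000315). POPDC3, of the Popeye domain family, differed by -0.91 (adjusted p = 0.000897). In 2 other genes the treatments lay on opposite sides of untreated cells. FGFR1, a fibroblast growth factor receptor, was at 6.40, 6.56 and 6.58 against 5.81, 5.75 and 5.82, a difference of -0.72 (adjusted p = 0.0003). CD82, a tetraspanin, differed by -0.86 (adjusted p = 0.0134).

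In the remaining lower genes the treatments lay on opposite sides of untreated cells. ELOVL6, which elongates fatty acids, was at 6.76, 6.81 and 6.72 with HKMTI-1-005 and 7.71, 8.12 and 7.77 with GSK343. Untreated cells ranged from 6.83 to 7.66 between them, and the difference was -1.10 (-1.56 to -0.64, adjusted p = 0.0167). AIG1, a hydrolase of fatty acid esters, was at 7.32, 7.36 and 7.49 against 8.34, 8.52 and 8.45, a difference of -1.05 (adjusted p = 0.0116). MLXIPL, a glucose-responsive transcription factor, was at 5.90, 6.08 and 5.83 against 6.59, 6.73 and 6.78, a difference of -0.76 (adjusted p = 0.0417). NUCB2, a calcium-binding protein and precursor of nesfatin, differed by -0.85 (adjusted p = 0.0439).

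PCSK6, a proprotein convertase, differed by -0.53 (adjusted p = 0.0423), MAGOHB, of the exon junction complex, by -0.50 (adjusted p = 0.0224) and VAV3, a guanine nucleotide exchange factor, by -0.47 (adjusted p = 0.0259). ELOVL6 was the 1 called gene of the 30 sterol and fatty acid synthesis genes in the top 40%, whose median was -0.01.

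The mRNAs of the inhibited enzymes did not separate the treatments. EZH2 had a mean of 9.74 in both groups, a difference of 0.01 (-0.31 to 0.32). EHMT2 differed by 0.03 (-0.42 to 0.49), EHMT1 by 0.01 (-0.28 to 0.30) and EZH1, the paralog of EZH2, by 0.05 (-0.24 to 0.33), all with an adjusted p of 1. Among 30 Polycomb genes of the top 40% PCGF5 was called and the median was -0.04. PHC1, another PRC1 subunit, differed by -0.51 (adjusted p = 0.245) and YAF2, also of PRC1, by -0.42 (adjusted p = 0.428). Of 31 genes of H3K9 methylation and heterochromatin 0 were called and 0 had an unadjusted p under 0.05, with a median of -0.02. Developmental genes known as Polycomb targets were mostly of low level: 6 of 71 measured lay in the top 40%, and 0 were called (2 higher and 0 lower at an unadjusted p under 0.05).

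**Figure D4:**
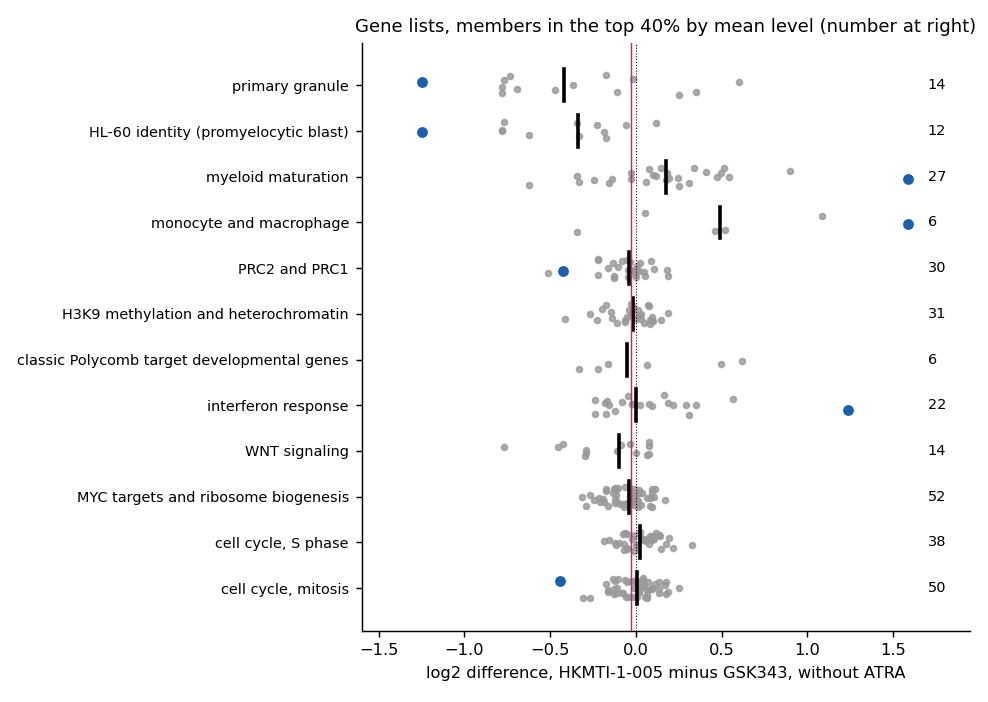
Log2 difference between HKMTI-1-005 and GSK343 without ATRA for members of 12 gene lists in the top 40% by mean level (number at right). Gray points are genes that were not called, blue points called genes, black bars medians and the red line the median of all 7367 genes (-0.03). PRTN3 and IGSF6 each stand in a pair of lists. The primary granule list has a median of -0.42, and the cell cycle lists have medians of 0.02 and 0.01.

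Genes of growth had medians near 0. The S phase list had one of 0.02 over 38 genes, with 0 calls and 0 genes at an unadjusted p under 0.05, and the mitosis list one of 0.01 over 50 genes, where CHFR was called. The list of MYC targets and ribosome biogenesis had a median of -0.04 over 52 genes with 0 calls (0 higher and 2 lower at an unadjusted p under 0.05), and MYC itself differed by -0.18 (adjusted p = 1). Of the WNT genes, 0 of 14 were called (0 higher and 4 lower at an unadjusted p under 0.05) and the median was -0.10. FZD3, a WNT receptor, was at -0.77 (adjusted p = 0.103), the cyclin gene CCND1 at -0.46 (adjusted p = 0.375) and the transcription factor gene LEF1 at -0.43 (adjusted p = 0.72). GATA2, a factor of stem and progenitor cells, differed by -0.52 (adjusted p = 0.493), MLLT3, which maintains stem cells, by -0.49 (adjusted p = 0.415) and SMYD2, a lysine methyltransferase, by -0.33 (adjusted p = 0.562). GATA2 and MLLT3 had means under the level limit, so they could not be called, and the arrays of MLLT3 overlapped. With ATRA MLLT3 went the other way, at 0.52, while GATA2 was at -0.60 and SMYD2 at -0.22. The interferon list had a median of 0.00 over 22 genes, where SAMHD1 was called and the DNA sensor IFI16 differed by 0.57 (adjusted p = 0.152). CD69, an early activation antigen of leukocytes, was at 6.13, 6.07 and 6.97 with HKMTI-1-005 against 8.00, 7.61 and 7.73 with GSK343, a difference of -1.38 that was not called (standard error 0.39, adjusted p = 0.146). DHRS3, a reductase of retinaldehyde, differed by -0.95 (adjusted p = 0.213), and by -0.47 without GSK343 replicate 3, and cathepsin L (CTSL), a lysosomal protease, by -0.67 (adjusted p = 0.0899). GPR65, a proton-sensing receptor of leukocytes, differed by 1.11 (adjusted p = 0.126). Other receptor genes that the study names were not called either. SLAMF7, whose mean was under the level limit, differed by 0.57 (adjusted p = 0.419), and by 1.03 with ATRA (adjusted p = 0.00493). CD36 differed by 0.47 (standard error 0.39), with separate arrays, and FCER2 by 0.28 (standard error 0.59), with overlapping arrays.

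The other lists held few or no calls in the top 40%. PRTN3 was the call of the HL-60 identity list, whose median over 12 genes was -0.34. SAMHD1 was called in the list of deoxynucleotide metabolism (25 genes, median 0.01), CD38 in that of retinoic acid targets (12 genes, median -0.18), and both ENTPD1 and CD38 in that of ectonucleotidases and purine signaling (17 genes, median -0.10). The remaining 12 lists had 0 calls with limma, and their genes at an unadjusted p under 0.05 were few. Those were 0 higher and 1 lower of 5 secondary granule genes, 0 and 2 of 10 stem and progenitor genes, 3 and 1 of 31 inflammatory genes, 2 and 1 of 32 lysosome genes and 1 and 5 of 37 genes of the unfolded protein response. They were also 0 and 1 of 16 p53 targets and 1 and 0 of 22 genes of heat shock and oxidative stress. In the BCL2 family (11 genes), MHC genes (4), erythroid genes (2), eosinophil and mast cell genes (1) and lymphoid genes (1) there were 0 in either direction. The medians of these 12 lists lay between -0.20 (erythroid) and 0.35 (eosinophil and mast cell), and between -0.09 and 0.07 for the 9 lists with more than 2 genes.

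The 6 arrays with ATRA share none with the comparison above and give the same pair of treatments again. There 79 genes were called (1.07%), 33 higher (0.448%) and 46 lower (0.624%), a count that ran from 12 to 185 as single arrays were left out (12 without HKMTI-1-005+ATRA replicate 2, 13 without GSK343+ATRA replicate 1, 25 without HKMTI-1-005+ATRA replicate 1, 33 without GSK343+ATRA replicate 2, 128 without HKMTI-1-005+ATRA replicate 3 and 185 without GSK343+ATRA replicate 3). Centring the arrays gave 54 higher and 43 lower. Of the 29 genes called without ATRA, 28 had the same direction there, against 63.4% of all 7367 genes. The exception was MLXIPL, at 0.03. In 21 of the 28 the arrays with ATRA did not overlap (over all genes 9.92% in the higher and 9.07% in the lower direction), and 11 were called.

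**Figure D5:**
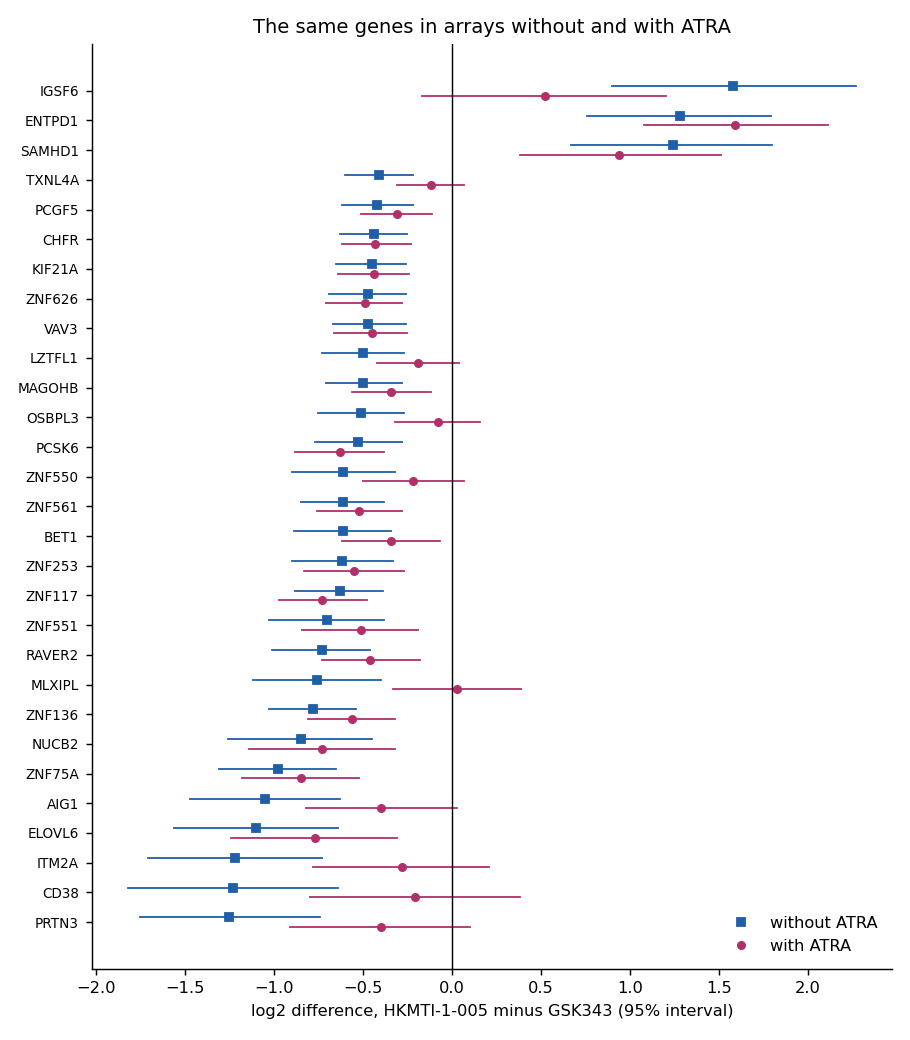
Log2 difference between HKMTI-1-005 and GSK343 for the 29 genes called without ATRA, in the arrays without ATRA (blue squares) and in the separate arrays with ATRA (red circles), with 95% intervals from limma. ENTPD1 has 1.28 and 1.59, ZNF75A -0.98 and -0.85, and PRTN3, CD38 and ITM2A lie closer to 0 with ATRA, at -0.40, -0.21 and -0.28.

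The zinc finger genes and ENTPD1 were among those called with ATRA as well. ENTPD1 was at 9.25, 9.28 and 8.66 with HKMTI-1-005+ATRA and 7.12, 7.67 and 7.62 with GSK343+ATRA, a difference of 1.59 (adjusted p = 0.000452). All 8 ZNF genes were below 0 and 6 were called, ZNF75A at -0.85 (adjusted p = 0.00441) and ZNF117 at -0.73 (adjusted p = 0.000922) among them. The 62 chromosome 19 genes had a median of -0.26, with 54 below 0 and 24 at an unadjusted p under 0.05 in that direction (5.62% of all 7367 genes, and 6.84% in the other), and their mean level was 7.97, 7.83 and 7.88 with HKMTI-1-005+ATRA against 8.10, 8.08 and 8.27 with GSK343+ATRA, which did not overlap. CHFR differed by -0.43 (adjusted p = 0.0164), KIF21A by -0.44, VAV3 by -0.45 and PCSK6 by -0.63. Of the 43 genes of low level, 39 kept their direction and 14 of these had an adjusted p of 0.05 or less, CLEC5A at 1.24 (adjusted p = 0.038), ERV3-1 at -1.33 (adjusted p = 0.00937) and PFN2 at -0.77 (adjusted p = 0.00497) among them.

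Other genes had smaller differences with ATRA. The 29 were picked by their values without ATRA, so smaller values in other arrays need not be tied to ATRA. CD38 was at 10.86, 10.92 and 10.49 with GSK343+ATRA and 10.67, 10.78 and 10.19 with HKMTI-1-005+ATRA, which overlapped (-0.21, adjusted p = 0.92). ITM2A was at 6.75, 6.94 and 7.64 against 6.89, 6.67 and 6.92, also overlapping (-0.28, adjusted p = 0.815). SAMHD1 was at 11.16, 11.22 and 11.24 against 12.45, 12.23 and 11.76, apart but not called (0.94, adjusted p = 0.105). The difference between the differences was tested for each gene, and 0 of 7367 passed (limma, adjusted p; 193 higher and 40 lower at an unadjusted p under 0.05 with a fold of 1.3, and 0 with the trended robust variance). The largest changes among the 29 were 1.02 for CD38 (adjusted p = 1), 0.94 for ITM2A (adjusted p = 1), 0.84 for PRTN3 (adjusted p = 1) and 0.79 for MLXIPL (adjusted p = 0.843), and -1.07 for IGSF6 (adjusted p = 1).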

How the data were processed

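HL-60 RNA was hybridized to 42 arrays (Affymetrix Human Gene ST) in 14 groups of 3. The log2 values deposited by the authors came from GC-RMA normalization followed by a removal of batch and date effects, both done in Partek (versions not given in the sources used here), and were analysed without further scaling. Their scale was read from their range. Batches and dates are not named, so no batch term entered a fit, and p-values may be too small because the fit does not know of that correction. The number of arrays limits the precision. Groups came from the treatment labels, and the study calls the arrays biological triplicates.

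Of 33297 probe sets, 19460 carry 1 gene symbol, 1754 several and 12083 none. The brightest probe set stood for each of 18417 genes. Group means of all 42 arrays were fitted with limma 3.58.1 in R 4.3.3 (lmFit, eBayes, 28 residual and 3.37 prior degrees of freedom). Genes were called at a Benjamini-Hochberg adjusted p of 0.05 or less over all genes, a fold of at least 1.3 and a mean in the top 40%, the limits of the study. The method was checked on simulated data. Every called gene was named. Others were drawn from genes the study names, up to 4 members of each of 28 gene lists by p, and marker genes, not all of which are given. The rest are said to be chosen after their values were seen. The members and lists were chosen with earlier results of these data known. RefSeq gave start regions and gene order (18389 genes matched by Entrez ID), and no amino acid sequences were used here. Alternatives changed the arrays in the fit, a replicate block, the filters, the variance model, the scaling and the test, and left out each array. A fit without the 6 knockdown arrays of highest median was chosen after seeing the data.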

Additional observations from a re-analysis of the deposited data

Results flagged for a closer look

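SEMG1 differed between the treatments in another way with ATRA than without it. It was higher with HKMTI-1-005 by 1.40 without ATRA, and with ATRA its levels were 4.54, 4.54 and 4.53 with HKMTI-1-005 against 4.77, 4.72 and 4.33 with GSK343, a difference of -0.07. The change between the differences was -1.47 (adjusted p = 0.00154, limma), at a mean level under the limit for a call.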

How the results depend on the processing

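The 29 genes between the treatments became 62 (16 higher, 46 lower) with only the 18 inhibitor arrays in the fit, 16 with only the 6 arrays compared, 72 with no limit on level, 8 at a fold of 2, 19 with a trended robust variance, 50 without the 6 knockdown arrays of highest median (added after seeing the data) and 0 with an unpaired t-test (170 at an unadjusted p under 0.05 and a fold of 1.3), and 4 to 24 without single arrays. The 79 with ATRA became 163, 23, 178, 15 (fold of 2), 125 (quantile normalization), 0 (t-test, 290 unadjusted) and 153 (without the 6 arrays), and 12 to 185 without single arrays. The change with ATRA, 0 genes, became 3 with no limit on level (MACC1, SEMG1 and VSIG4) and was 0 to 1 without single arrays. The 16 of HKMTI-1-005 against untreated cells became 48, 4, 41, 1 (fold of 2), 10 (trended), 0 (t-test, 153 unadjusted) and 29 (without the 6 arrays), and 5 to 17 without single arrays. The 1 of GSK343 against untreated cells became 0 with only the 18 arrays, only the 6 arrays, a fold of 2 or a t-test (79 unadjusted), 4 with no limit on level or without the 6 arrays, and was 0 to 2 without single arrays. The cause of these changes was not tested, and the fits that use fewer arrays also have a smaller sample.

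With the replicate number as a block, 17 genes were called between the treatments, all among the 29. The 12 others, BET1, CD38, KIF21A, LZTFL1, MLXIPL, NUCB2, OSBPL3, PCGF5, PCSK6, SAMHD1, TXNL4A and ZNF253, had an adjusted p of 0.0545 (KIF21A) to 0.0878 (NUCB2) there. The block gave 69 with ATRA, 0 for the change, 15 and 1 against untreated cells. Deviations of GSK343 and HKMTI-1-005 arrays of the same number correlated at 0.444, 0.35 and -0.066 for numbers 1 to 3, so by a limit of 0.1 on each the numbers were not taken to pair these arrays. With untreated arrays of the same number the correlations were 0.433, 0.475 and 0.454 for GSK343 and 0.295, 0.366 and 0.202 for HKMTI-1-005, all past the limit. The main fits against untreated cells did not use this pairing. Differences near 0 changed sign when single arrays were left out: EZH2 ran from -0.07 to 0.06, EZH1 from -0.07 to 0.17, EHMT1 and EHMT2 from -0.12 to 0.12 and -0.07 to 0.14, and MYC from -0.38 to 0.05. For 88 named genes, settings that kept all arrays of the groups compared left 983 of the values on the same side of the limits, took 118 out of a call, brought 43 into one and reversed 0, while leaving out 1 array kept 405, took 110 out of a call, brought 2 into one and reversed 11.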
